A study of Mus musculus with 8 samples.

Results

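STRIPAK (striatin-interacting phosphatase and kinase) is a protein assembly in which striatins act as scaffolds that hold a PP2A phosphatase core beside protein kinases. SLMAP is a membrane-anchored partner of the assembly and is made as several protein isoforms. The largest isoform, SLMAP3, carries a forkhead-associated domain that binds phosphorylated kinases, and the shorter isoforms lack this domain. SLMAP3 is joined to the striatin core through the small coiled-coil protein SIKE1. The paper proposes that FGFR1OP2, a paralog of SIKE1, could join it in a similar way. The assembly is known for holding Hippo kinases in a dephosphorylated state and for roles at the centrosome and in the cell cortex. The genes described here encode SLMAP (Slmap), its small partners (Sike1 and Fgfr1op2), the striatin scaffolds (Strn, Strn3 and Strn4) and the accessory subunits Strip2, Mob4 and Cttnbp2nl. They were chosen by gene name, and all 9 were found among the 55401 genes of the deposited table and among the 15461 genes that had enough counts to be tested.

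RNA came from 8 lines of mouse embryonic fibroblasts (MEFs) of the B6C3F1 strain, 4 of them SLMAP3-/- and 4 wild type (WT), each grown from a different embryo at E14.5 after removal of the head and organs. In SLMAP3-/- mice a Cre driven by the CMV promoter had recombined a floxed Slmap allele at exon 3 throughout the body, and the labels give the other embryos as wild type, with no word on whether they carried the Cre or a floxed allele. All 8 lines, WT included, had been immortalized with SV40 large T antigen, so that both genotypes are cultured, transformed cells and not tissue. Each line gave 1 library, and p-values therefore measure the spread between these 8 lines.

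Expression was deposited by the authors as Salmon's estimated counts per gene, corrected for transcript length. Values are given here as CPM, each count divided by its TMM-normalized library total over the tested genes and multiplied by 1000000. Total estimated counts ranged from 50952494 to 59854680 in SLMAP3-/- lines and from 49879059 to 63322486 in WT lines. The labelled cell type was checked against markers, and all 8 fibroblast markers, among them Col1a1, Fn1 and Vim, exceeded 1 CPM in every line, with a summed level of 15700 to 21400 CPM in SLMAP3-/- and 18600 to 23400 CPM in WT lines. Of the markers of other cells, the endothelial genes Pecam1, Cdh5 and Emcn were under 1 CPM in every line while Kdr ranged from 7.87 to 28.4 CPM and Tek from 1.55 to 12.2 CPM. The 5 endothelial markers summed to 16.6 to 40.5 CPM in SLMAP3-/- and 9.47 to 27.5 CPM in WT lines. The neural marker Sox2 ranged from 3.41 to 15.4 CPM, and the erythroid marker Hbb-bs and the muscle marker Myod1 were at 0. The summed leukocyte markers reached at most 5.14 CPM and the summed epithelial markers at most 1.68 CPM.

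Slmap (ENSMUSG00000021870.17) spans 26413168 to 26534931 of chromosome 14 (GRCm38, minus strand). In the GENCODE M21 annotation it has 16 transcripts, 9 of them coding. Exon 3 of the reference transcript, the exon that was floxed, is shown because its loss defines the SLMAP3-/- lines. It is written 5′ to 3′ on the coding strand, with exon 3 in capitals and 30 bases of the neighbouring exons on each side in lower case, followed by the join of exon 2 to exon 4 up to the first stop codon, which is in capitals.
Slmap exon 3, GRCm38, minus strand, chr14:26473899-26473971: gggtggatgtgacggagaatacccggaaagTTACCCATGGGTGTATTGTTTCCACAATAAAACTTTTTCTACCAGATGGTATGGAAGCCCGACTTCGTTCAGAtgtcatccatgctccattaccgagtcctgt
Slmap exon 2 joined to exon 4: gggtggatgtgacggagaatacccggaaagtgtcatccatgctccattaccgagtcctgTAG
The exon has 73 bases, which leaves a remainder of 1 over whole codons. In the annotated sequence the joined transcript reaches the printed stop after 125 codons, against 845 codons with the exon in place. This join was read from the annotation and was not measured in the lines. Of the 9 coding transcripts, 5 hold the whole exon, 1 starts within it, and 3 start farther downstream, between 71.2 and 74.8 kb from the start of the gene, whereas exon 3 lies at 61.0 kb. Exon 3 makes up 0.91% of the exonic bases of Slmap and 22.7% of them lie in or before it, so most of the bases over which reads are counted lie outside the floxed exon.

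**Figure D1:**
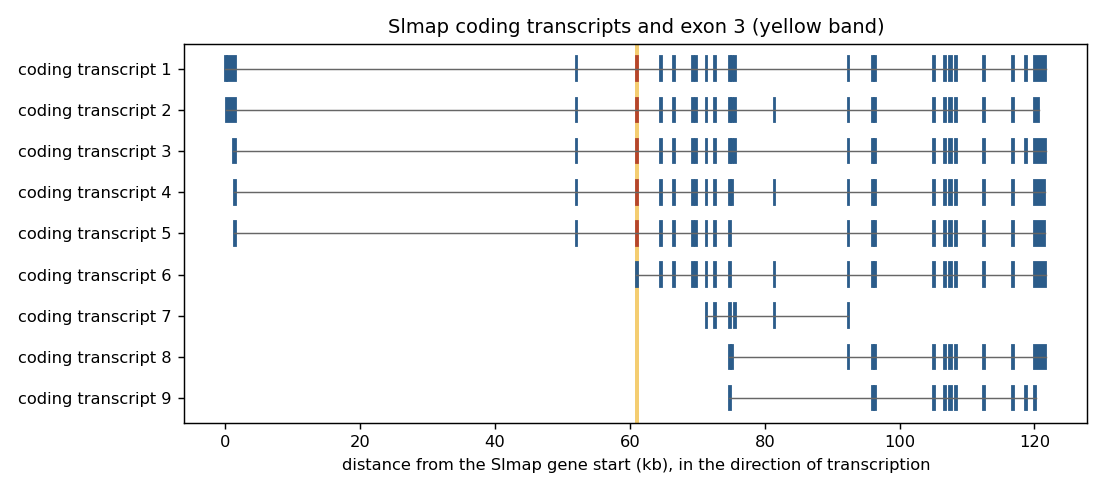
The 9 coding Slmap transcripts of GENCODE M21 are drawn to scale along the gene, with the distance from the gene start in kb on the horizontal axis and 1 transcript per line on the vertical axis. Boxes are exons (very short exons are widened so that they can be seen), exon 3 is red inside the yellow band, and 3 transcripts start downstream of it.

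All 4 SLMAP3-/- lines had less Slmap RNA than any of the WT lines. Its level was 44.3, 32.7, 36.3 and 39.7 CPM in SLMAP3-/- replicates 1 to 4, and 124.0, 139.0, 143.0 and 140.6 CPM in WT replicates 1 to 4. The groups did not overlap, and the lowest WT line was replicate 1. The mean was 38.3 ± 4.94 CPM (SD, n = 4) in SLMAP3-/- and 137 ± 8.60 CPM (SD, n = 4) in WT lines. Slmap fell by 1.84 on the log2 scale (standard error 0.109, 95% interval -2.09 to -1.59), to 0.280 times the WT level, with a Benjamini-Hochberg adjusted p of 0.00119 from the edgeR quasi-likelihood fit of all tested genes. The two-sided exact permutation test over lines gave p = 0.0286, the smallest value that 4 lines against 4 allow. The Slmap RNA that was still counted amounted to 32.5%, 23.9%, 26.6% and 29.0% of the WT mean in SLMAP3-/- replicates 1 to 4. These counts sum all transcripts of the gene and do not show which transcripts or exons they came from. In bulk RNA, fewer cells that express a gene and less RNA per cell cannot be told apart.

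Slmap was the only one of the 9 genes past the threshold, and edgeR called 0.00647% of all tested genes. It was also the only one of the 9 whose lines did not overlap between genotypes, which was so for 1.25% of all tested genes in either direction and for 0.53% with the SLMAP3-/- lines lower. Of the other 8 genes, 2 had a higher and 6 a lower fitted value in SLMAP3-/- lines, beside 7647 higher and 7814 lower over all tested genes. None of the 8 reached 0.05 before adjustment in edgeR, as 1.81% of all tested genes did. Their median log2 fold change was -0.05, beside -0.0014 over all tested genes. Each of these 8 genes had an adjusted p of 1 in edgeR. DESeq2, run as an alternative, called 0.0633% of the genes to which it gave an adjusted p and also called Slmap and none of the other 8, none of which had p under 0.05 before adjustment in DESeq2 either, against 2.91% of those genes. Apart from Slmap and the sparsely counted Strip2, the fitted levels in SLMAP3-/- lines lay between 0.942 and 1.07 times the WT level, and the 95% intervals of these 7 genes reached from 0.759-fold, for Strn3, to 1.29-fold, for Cttnbp2nl. A change of Slmap's size therefore lay outside the interval of each of the 7 genes. Changes within a gene's own interval remain compatible with its counts, and the outer bounds do not hold for each gene. The interval of Strn, for example, was 0.867- to 1.08-fold. What size of change the test could detect was not computed.

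**Figure D2:**
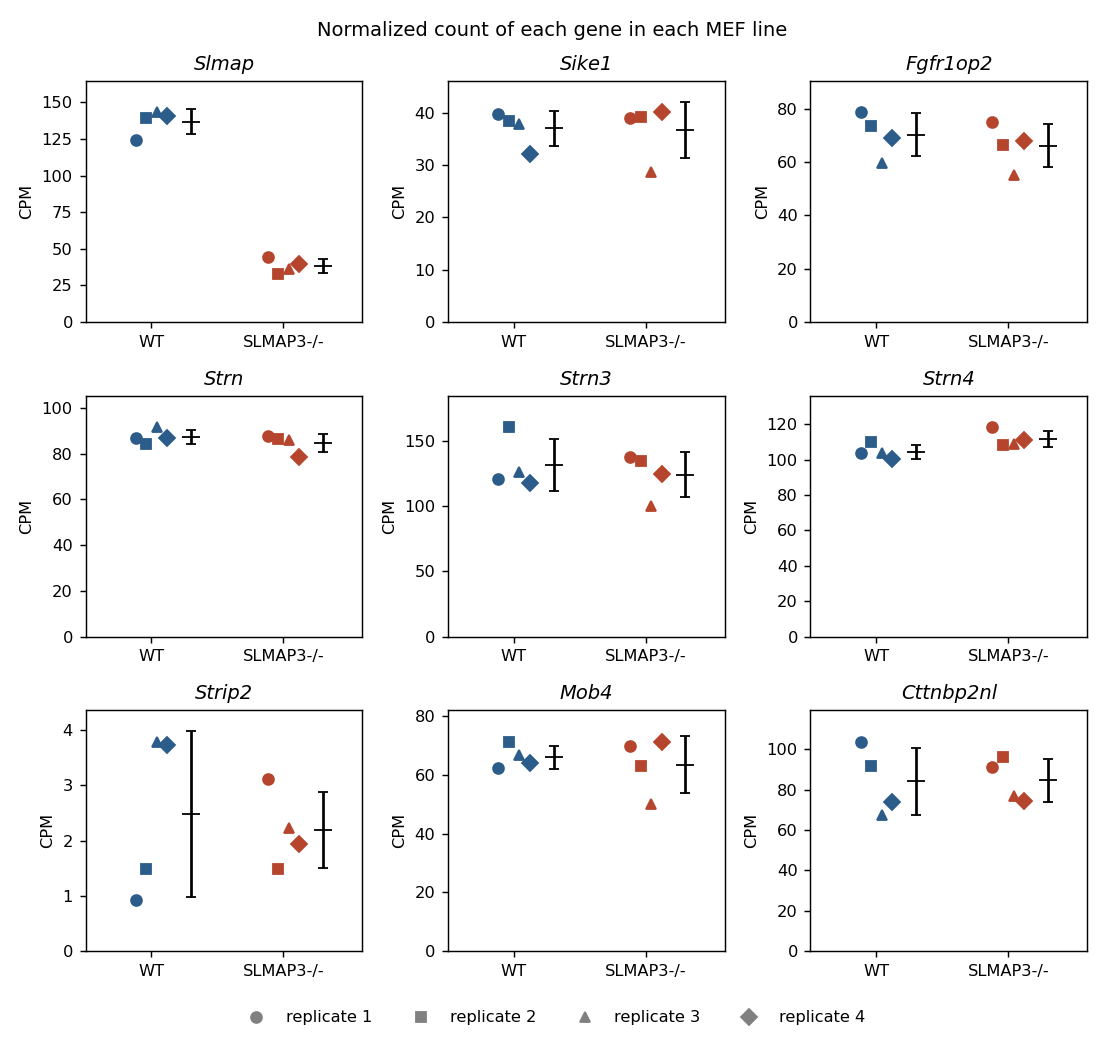
Each panel shows the normalized count (CPM, axis from 0) of 1 gene in 4 WT (blue) and 4 SLMAP3-/- (red) lines, with the marker shape giving the replicate number and the bars the mean ± SD of each genotype. Slmap is between 32.7 and 44.3 CPM in SLMAP3-/- and between 124.0 and 143.0 CPM in WT lines, and the lines of the other 8 genes overlap between genotypes.

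The small partners of SLMAP are a pair of paralogs. Sike1 (ENSMUSG00000027854.12) spans 102995708 to 103008459 of chromosome 3, and Fgfr1op2 (ENSMUSG00000040242.14) spans 146577203 to 146599198 of chromosome 6, both on the plus strand. SIKE1 is also known as a suppressor of the kinase IKK epsilon in antiviral signalling, and FGFR1OP2 was first found as a fusion partner of a fibroblast growth factor receptor. Over 593 aligned coding bases they were 68.3% identical, and the longest identical run was 14 bases. Their most alike 60 coding bases are printed to show how closely the pair can match, with the 50 bases they share in capitals. The Sike1 stretch covers coding bases 277 to 336 and the Fgfr1op2 stretch bases 265 to 324, counted from the start codon.
Sike1: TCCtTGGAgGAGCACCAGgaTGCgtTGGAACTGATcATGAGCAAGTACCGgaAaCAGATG
Fgfr1op2: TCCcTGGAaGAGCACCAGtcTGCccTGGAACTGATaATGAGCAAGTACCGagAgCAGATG
No run of 31 bases was shared between transcripts of the pair.

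Sike1 was 39.1, 39.2, 28.7 and 40.0 CPM in SLMAP3-/- replicates 1 to 4. In WT replicates 1 to 4 it was 39.7, 38.4, 37.8 and 32.2 CPM. The groups overlapped, and the lowest value of all 8 lines was that of SLMAP3-/- replicate 3. The means were 36.8 ± 5.36 CPM in SLMAP3-/- and 37.0 ± 3.33 CPM in WT lines (SD, n = 4 each), a log2 fold change of -0.0097 with a 95% interval of -0.30 to 0.28 (two-sided exact permutation test, p = 0.943). Levels between 0.811 and 1.22 times WT lay within that interval.

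Fgfr1op2 was 75.0, 66.4, 55.3 and 68.1 CPM in SLMAP3-/- replicates 1 to 4, and 78.6, 73.6, 59.8 and 69.1 CPM in WT replicates 1 to 4. Replicate 3 was the lowest line in both genotypes, and the groups overlapped. The means of 66.2 ± 8.16 CPM in SLMAP3-/- and 70.3 ± 8.02 CPM in WT lines (SD, n = 4 each) gave a log2 fold change of -0.09 with a 95% interval of -0.36 to 0.19 (two-sided exact permutation test, p = 0.514). Fgfr1op2 shares 133 bases with the copy Gm12312, whose counts of 0 to 124 per line were at most 3.7% of those of Fgfr1op2, and 57 of its exonic bases overlap Ints13 on the opposite strand.

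Because both genes are counted in the same library, the ratio of their counts is free of the normalization between lines. Fgfr1op2 over Sike1 was 1.92, 1.70, 1.92 and 1.70 in SLMAP3-/- replicates 1 to 4, and 1.98, 1.92, 1.58 and 2.15 in WT replicates 1 to 4. The SLMAP3-/- lines lay within the range of the WT lines. The log2 ratio differed by -0.07 between genotypes (two-sided exact permutation test, p = 0.571, adjusted p = 0.743 over the 4 ratios tested). Per kb of exon, which allows the pair to be compared, Fgfr1op2 held 80.1 ± 1.14% of the summed level of the pair in SLMAP3-/- and 80.8 ± 2.07% in WT lines (SD, n = 4 each). The summed level was 17.9 ± 2.24 CPM per kb in SLMAP3-/- and 18.8 ± 1.86 CPM per kb in WT lines.

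The striatins are WD-repeat proteins with a coiled coil, bind calmodulin and caveolin, and serve as regulatory subunits of PP2A. Strn (ENSMUSG00000024077.15) spans 78649913 to 78737196 of chromosome 17 (minus strand), Strn3 (ENSMUSG00000020954.16) spans 51609632 to 51691897 of chromosome 12 (minus strand), and Strn4 (ENSMUSG00000030374.15) spans 16815889 to 16840931 of chromosome 7 (plus strand). Their coding sequences were 66.6% to 69.0% identical in pairs, and no identical run was longer than 17 bases. The 60 coding bases most alike in the 3 striatins are printed to show how far the scaffold paralogs match, with the 45 bases that all 3 share in capitals, and cover coding bases 208 to 267 of Strn and 256 to 315 of Strn3 and Strn4.
Strn: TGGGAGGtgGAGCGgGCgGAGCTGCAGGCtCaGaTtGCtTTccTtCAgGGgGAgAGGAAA
Strn3: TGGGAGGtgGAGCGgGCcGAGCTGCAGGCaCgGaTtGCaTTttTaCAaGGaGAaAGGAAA
Strn4: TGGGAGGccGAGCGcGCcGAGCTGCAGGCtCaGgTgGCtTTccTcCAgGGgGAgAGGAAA

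Strn was 87.5, 86.5, 86.03 and 78.5 CPM in SLMAP3-/- replicates 1 to 4, and 86.6, 84.3, 91.6 and 86.8 CPM in WT replicates 1 to 4. SLMAP3-/- replicate 4 was the lowest of the 8 lines, and the groups overlapped. The means were 84.6 ± 4.12 CPM in SLMAP3-/- and 87.3 ± 3.04 CPM in WT lines (SD, n = 4 each). The log2 fold change of -0.05 had a 95% interval of -0.21 to 0.11 (two-sided exact permutation test, p = 0.429).

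Strn3 was 137.5, 134.1, 99.8 and 124.1 CPM in SLMAP3-/- replicates 1 to 4, and 120.6, 160.3, 126.3 and 117.9 CPM in WT replicates 1 to 4. It was lowest in SLMAP3-/- replicate 3 and highest in WT replicate 2, and the other 6 lines lay between 117.9 and 137.5 CPM. The means were 124 ± 17.0 CPM in SLMAP3-/- and 131 ± 19.6 CPM in WT lines (SD, n = 4 each). The log2 fold change of -0.08 had a 95% interval of -0.40 to 0.23 (two-sided exact permutation test, p = 0.600). It was 0.0082 without SLMAP3-/- replicate 3 and 0.027 without WT replicate 2.

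Strn4 was 118.4, 108.2, 108.8 and 111.0 CPM in SLMAP3-/- replicates 1 to 4, and 103.9, 109.8, 104.0 and 100.2 CPM in WT replicates 1 to 4. WT replicate 2 lay above 2 of the SLMAP3-/- lines, so that the groups overlapped, and the other 3 WT lines lay below every SLMAP3-/- line. The means were 112 ± 4.69 CPM in SLMAP3-/- and 104.5 ± 3.95 CPM in WT lines (SD, n = 4 each). The log2 fold change of 0.09 had a 95% interval of -0.07 to 0.26 (two-sided exact permutation test, p = 0.0857), and did not pass the threshold.

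Each pair of striatins was also compared by its ratio of counts within a library. Strn4 over Strn was 1.35, 1.25, 1.26 and 1.41 in SLMAP3-/- replicates 1 to 4, and 1.20, 1.30, 1.14 and 1.16 in WT replicates 1 to 4. WT replicate 2 again lay above 2 SLMAP3-/- lines, and the log2 ratio differed by 0.14 between genotypes, a ratio 1.10 times that of WT (two-sided exact permutation test, p = 0.0857, adjusted p = 0.343 over the 4 ratios). For Strn3 over Strn, the ratio was 1.16 in SLMAP3-/- replicate 3 and 1.55 to 1.58 in the other 3 SLMAP3-/- lines, while it was 1.90 in WT replicate 2 and 1.36 to 1.39 in the other 3 WT lines. The log2 ratio of Strn3 over Strn differed by -0.04 between genotypes (two-sided exact permutation test, p = 0.743, adjusted p = 0.743). Strn4 over Strn3 ranged from 0.807 to 1.09 in SLMAP3-/- and from 0.685 to 0.862 in WT lines, and the log2 ratio differed by 0.18 (two-sided exact permutation test, p = 0.257, adjusted p = 0.514).

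Per kb of exon, Strn3 was the most abundant striatin in all 8 lines. It held 44.0 ± 3.30% of the summed striatin level in SLMAP3-/- and 46.0 ± 3.21% in WT lines. Strn4 held 33.3 ± 1.82% and 30.8 ± 1.21%, and Strn 22.7 ± 1.78% and 23.2 ± 2.08%, in SLMAP3-/- and WT lines in that order (SD, n = 4 each). The share of Strn3 was lowest, at 39.1%, in SLMAP3-/- replicate 3 and highest, at 50.8%, in WT replicate 2. The summed striatin level was 42.2 ± 3.02 CPM per kb in SLMAP3-/- and 42.7 ± 3.27 CPM per kb in WT lines. These shares rest on the exon length used, and with the length of the longest coding transcript in its place the share of Strn was 12.3% in WT lines.

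**Figure D3:**
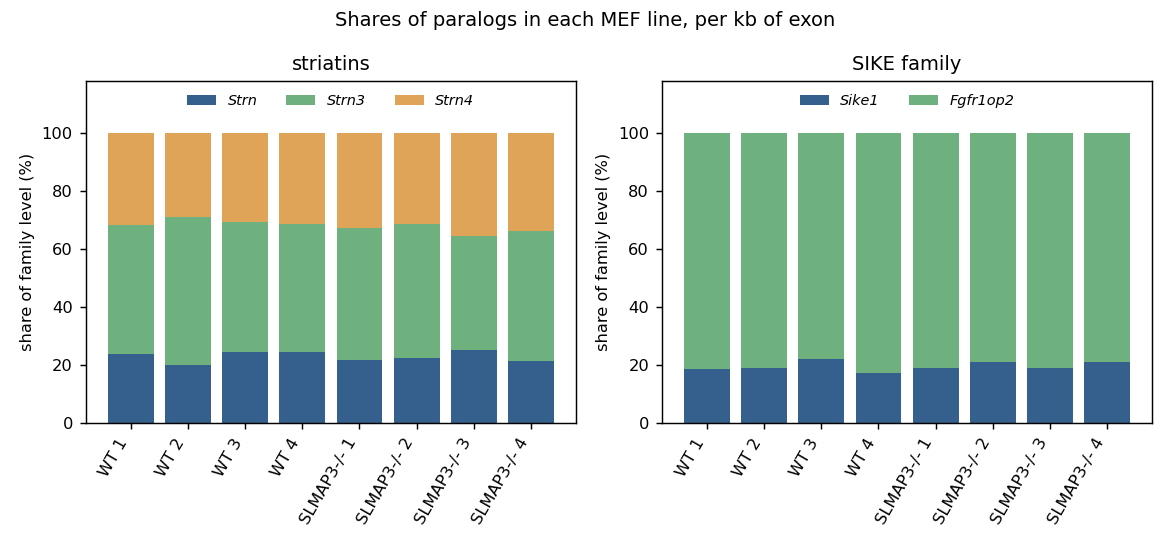
Stacked bars give, for each of the 8 lines, the share (%, axis from 0) of each striatin in the summed striatin level per kb of exon (left) and of Sike1 and Fgfr1op2 in the summed level of that pair (right). Strn3 is the largest striatin share in every line, at 39.1% to 50.8%, and Fgfr1op2 holds 77.9% to 82.7% of its pair.

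The accessory subunits were Strip2 (ENSMUSG00000039629.14; plus strand of chromosome 6, 29917012 to 29959681), Mob4 (ENSMUSG00000025979.13; plus strand of chromosome 1, 55131231 to 55154899) and Cttnbp2nl (ENSMUSG00000062127.11; minus strand of chromosome 3, 105001915 to 105053146). STRIP2 is 1 of the striatin-interacting proteins that stabilize the assembly, MOB4 (phocein) is a relative of the kinase-binding MOB proteins that binds striatins directly, and CTTNBP2NL is a relative of the cortactin-binding protein CTTNBP2.

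Strip2 was sparse, at 57 to 219 estimated counts per line. It was 3.12, 1.48, 2.23 and 1.94 CPM in SLMAP3-/- replicates 1 to 4, and 0.919, 1.49, 3.78 and 3.72 CPM in WT replicates 1 to 4. WT lines split into a lower and a higher pair, with 3 of the 4 SLMAP3-/- lines between them. The means were 2.19 ± 0.690 CPM in SLMAP3-/- and 2.48 ± 1.49 CPM in WT lines (SD, n = 4 each). The log2 fold change of -0.18 had a 95% interval of -1.27 to 0.92 (two-sided exact permutation test, p = 1.0), so that levels from 0.413 to 1.89 times WT lay within it.

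Mob4 was 69.8, 62.9, 50.1 and 71.3 CPM in SLMAP3-/- replicates 1 to 4, and 62.2, 71.1, 66.8 and 63.9 CPM in WT replicates 1 to 4. SLMAP3-/- replicate 3 was the lowest of the 8 lines, and the other 3 SLMAP3-/- lines lay close to the WT range. The means of 63.5 ± 9.66 CPM in SLMAP3-/- and 66.0 ± 3.88 CPM in WT lines (SD, n = 4 each) gave a log2 fold change of -0.06 with a 95% interval of -0.33 to 0.21 (two-sided exact permutation test, p = 0.743).

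Cttnbp2nl was 91.2, 96.2, 76.8 and 74.6 CPM in SLMAP3-/- replicates 1 to 4, and 103.7, 91.7, 67.2 and 73.8 CPM in WT replicates 1 to 4. Each genotype held 2 higher and 2 lower lines, and the SLMAP3-/- lines lay within the WT range. The means were 84.7 ± 10.6 CPM in SLMAP3-/- and 84.1 ± 16.6 CPM in WT lines (SD, n = 4 each), a log2 fold change of 0.01 with a 95% interval of -0.34 to 0.36 (two-sided exact permutation test, p = 0.8286). An antisense gene, Gm40117, overlaps 155 of its exonic bases, and its transcripts share a run of 31 bases with Sike1 and of 34 bases with Strip2. SLMAP3-/- replicate 3 was the lowest of the 8 lines for 4 of the 9 genes, namely Sike1, Fgfr1op2, Strn3 and Mob4. How often this line was the lowest over all tested genes was not counted, so no drop particular to these genes can be read from it.

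Levels of different genes were compared as CPM per kb of exon. In WT lines the order was Strn3 (19.8 ± 2.96), Slmap (17.0 ± 1.07), Fgfr1op2 (15.2 ± 1.74), Mob4 (13.6 ± 0.800), Strn4 (13.1 ± 0.496), Cttnbp2nl (10.3 ± 2.05), Strn (9.86 ± 0.343), Sike1 (3.59 ± 0.323) and Strip2 (0.298 ± 0.179 CPM per kb, SD, n = 4 for each). From Strn3 down to Strn, each gene overlapped the next in the range of its WT lines. Sike1 lay below Strn, and Strip2 below Sike1, without overlap. In SLMAP3-/- lines Slmap, at 4.75 ± 0.614 CPM per kb, was at place 7 in place of 2, below every line of Strn and above every line of Sike1. With the length of the longest coding transcript, Strn3 was again first and Strip2 last, while Strn4 moved from place 5 to place 2 in WT lines.

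The genes also differed in how alike lines of 1 genotype were. The SD of log2 CPM within genotype was 0.06 for Strn and 0.06 for Strn4, and only 2.18% and 1.45% of tested genes of a similar level (within 2-fold) had a lower SD than Strn and Strn4, respectively. The medians of such genes were 0.18 in both cases. Strn3 had an SD of 0.21 and Cttnbp2nl of 0.24, above 61.6% and 69.6% of genes of a similar level, and Sike1, Fgfr1op2 and Mob4 were near the middle, above 48.3%, 48.6% and 47.5%. The 95% interval of the log2 fold change was narrow for Strn and Strn4, with a width of 0.32 for each, and 99.6% of tested genes had a wider one.

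**Figure D4:**
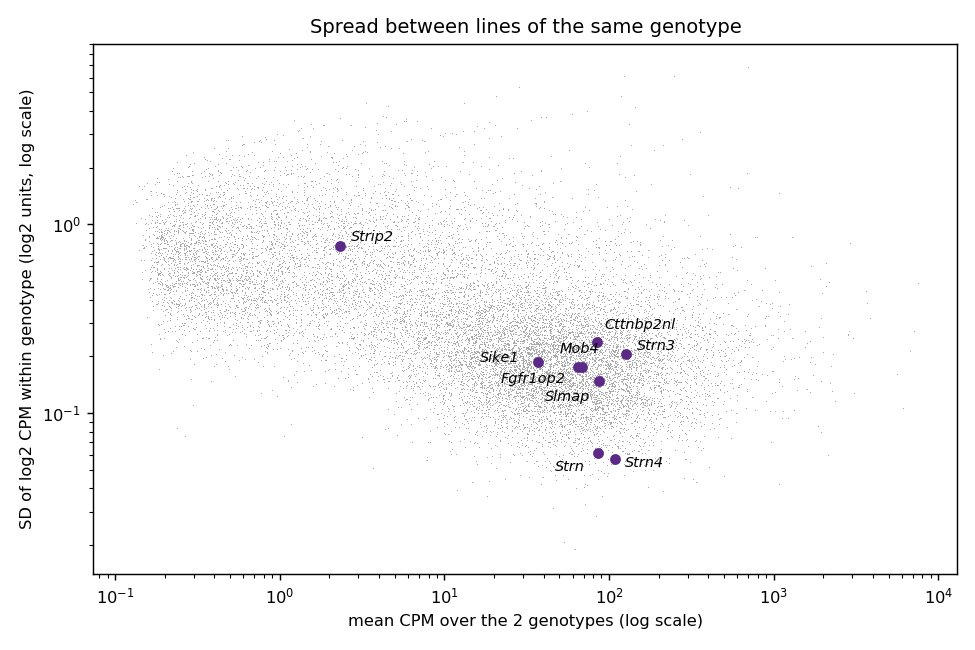
Each grey dot is 1 of the 15461 tested genes, with the mean CPM over both genotypes on the horizontal axis and the SD of log2 CPM between lines of the same genotype on the vertical axis (both log scales), and the 9 genes are purple. Strn and Strn4 lie near the lower edge of the cloud, while Strip2 lies far left, where counts are sparse.

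Of the 16 other STRIPAK genes listed, which encode relatives of these subunits, kinases, the kinase adaptor PDCD10 and PP2A subunits, 14 passed the filter on low counts and none passed the threshold. In the SLMAP3-/- lines 7 had a higher and 7 a lower fitted value, none reached 0.05 in edgeR before adjustment, and the lines of all 14 overlapped between genotypes. Over all 15461 tested genes, 7647 were higher and 7814 lower. Of these, 0.00647% passed the threshold, 1.81% reached 0.05 before adjustment and 1.25% had lines that did not overlap. At such shares 14 genes would seldom include one, so the counts show nothing particular to STRIPAK genes. The median log2 fold change of the 14 was -0.00011, beside -0.0014 over all tested genes. Ccdc136 is on the list as a paralog of Slmap, and the paper does not name it among the STRIPAK subunits. It was 35.2 ± 9.80 CPM in SLMAP3-/- and 43.1 ± 11.2 CPM in WT lines (SD, n = 4 each). The 95% interval of its log2 fold change of -0.29 was -0.84 to 0.25. Cttnbp2, the paralog of Cttnbp2nl, had 0 to 25 counts per line and Traf3ip3 had 0 to 1, and neither was tested with edgeR. The fitted value farthest from 0 was that of the kinase gene Tnik, at 1.39, from 9 to 80 counts per line (95% interval -0.15 to 2.92). DESeq2 also called none of these genes, and Tnik was the only one with a p under 0.05 before adjustment there, at 0.0441 (DESeq2's adjusted p was 0.9999). Of all genes to which DESeq2 gave an adjusted p, 0.0633% were called and 2.91% had a p under 0.05 before adjustment.

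**Figure D5:**
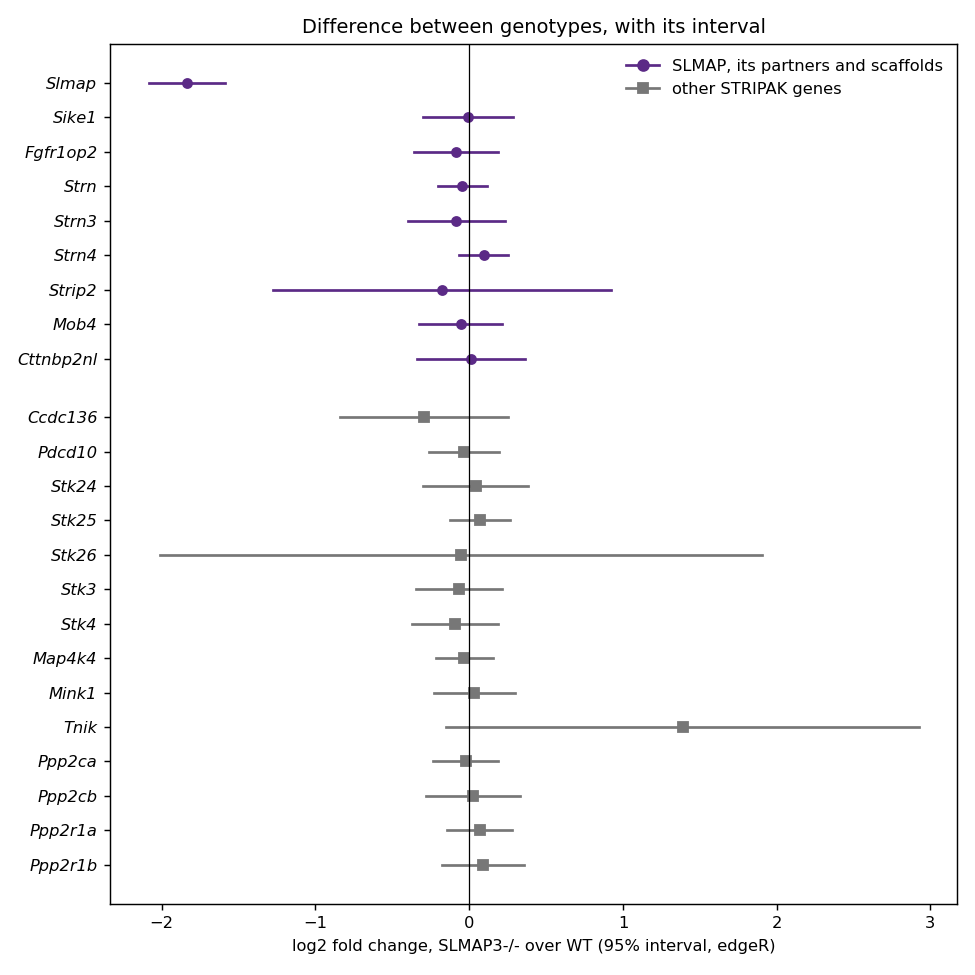
Points are log2 fold changes of SLMAP3-/- over WT lines from edgeR and bars their 95% intervals, for the 9 genes (purple circles) and for the 14 other tested STRIPAK genes (grey squares). The interval of Slmap, -2.09 to -1.59, is the only one that does not cross 0, and those of Strip2, Stk26 and Tnik are the widest.

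Across the 8 lines, the 28 pairs of the 8 genes other than Slmap were compared for log2 CPM, and none had an adjusted p under 0.05 over the 28 pairs, while 3 had an unadjusted p under 0.05 (exact permutation tests of r). Pearson's r ranged from -0.777 to 0.805, with a median of 0.212, and was positive in 17 pairs. Mob4 with Strn3 had the highest r, 0.805 (exact permutation p = 0.0228, adjusted p = 0.338), with a Spearman's rho of 0.619 (exact permutation p = 0.115, adjusted p = 0.738). Without the 2 lines farthest from the median of Strn3, r was 0.318, so that its size depended on them. Leaving out the most extreme lines narrows the range and tends to lower r in any case. Cttnbp2nl with Strip2 had the lowest r, -0.777 (exact permutation p = 0.0305, adjusted p = 0.338), with a rho of -0.905 (exact permutation p = 0.00456, adjusted p = 0.128), and r was -0.498 without 2 lines. The third of these pairs, Sike1 with Mob4, had an r of 0.797 (exact permutation p = 0.0448, adjusted p = 0.338), a rho of 0.381 (exact permutation p = 0.36, adjusted p = 0.738) and an r of -0.119 without 2 lines. The size of r in this pair also depended on the lines left out. The partner paralogs Sike1 and Fgfr1op2 had an r of 0.643 (exact permutation p = 0.0756, adjusted p = 0.353), a rho of 0.476 (exact permutation p = 0.243, adjusted p = 0.738) and an r of 0.496 without 2 lines. These lines share the growth conditions and the normalization, and pairs that share a gene are not independent.

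Among 9537 tested genes with a mean of at least 10 CPM, the 3 with the pattern most like each of Slmap, Sike1 and Fgfr1op2 were found by Pearson's r of log2 CPM over the 8 lines, and these values are descriptions of the best of many genes. For Slmap they were P4ha1 (r = 0.92), Rnf145 (0.913) and Zcchc17 (0.907). The lines separate by genotype for Slmap, so these r values largely carry the difference between genotypes and not a pattern shared within them. Rnf145 had a mean of 67.9 CPM in SLMAP3-/- and 105.8 CPM in WT lines, and edgeR called no tested gene other than Slmap. For Sike1 they were Sugt1 (0.96), Tmem138 (0.958) and Gmeb2 (0.95). For Fgfr1op2 they were Cep83 (0.955), 4833439L19Rik (0.949) and Gclc (0.945). No STRIPAK gene was among these 9 genes, but so few genes out of 9537 would seldom include one in any case.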

How the data were processed

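Stranded mRNA libraries of 4 SLMAP3-/- and 4 WT MEF lines were sequenced by the authors. Per the study's methods, reads were assigned with Salmon to the GENCODE M25 transcripts of GRCm38, and the resulting estimated counts per gene were deposited after a correction for transcript length, without normalization across libraries. The version of Salmon, and whether the assignment used the strand, are not given in the sources used here. Salmon divides reads that match several transcripts, which can move counts between near-identical copies. A second deposited table holds the authors' own DESeq2 comparison (fold changes and p-values) and was not used.

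Groups were taken from the labels. Estimated counts, made whole by rounding, were tested with edgeR 4.0.16 in R 4.3.3 (filterByExpr with a minimum count of 10, TMM, glmQLFit and glmQLFTest with no covariates, Benjamini-Hochberg over 15461 genes, threshold 0.05). The 95% intervals use the standard error of the quasi-likelihood test. A prior count of 2 was added for log2 CPM. Tests by exact permutation of lines were two-sided (scipy 1.17.1, Python 3.11.15). Levels per kb used the union of exons in GENCODE M21, from which positions and sequences were also taken; no sequence read was analysed here. Fits were first tested on simulated data, and the outcome is not given here, so nothing is drawn from it on which small changes they could detect.

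The members and lists were chosen with earlier results of these data known. The genes named are the 9 members, paralogs of members among the other STRIPAK genes, any of those past the threshold or without overlap, and the 3 genes most like Slmap, Sike1 and Fgfr1op2. Tnik, Stk26 and the copies and overlapping genes were named after their values were seen. 1 gene of the list of other STRIPAK genes is not reported here. Alternatives were DESeq2 1.42.0, limma-voom (limma 3.58.1), DESeq2 size factors, 2 other filters, unrounded counts, the replicate number as a block, other pseudocounts, another gene length, and each line left out in turn. Totals of 49879059 to 63322486 counts per line set the counting error, which is largest for Strip2, with 57 to 219 counts per line.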

Additional observations from a re-analysis of the deposited data

Results flagged for a closer look

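In 4 of 26 groups of 4 lines, 1 line stood apart from the other 3 by more than Dixon's 95% critical value for a group of that size, where chance gives about 1.3. Sike1 in SLMAP3-/- replicate 3 was 28.7 CPM and the other 3 lines were 39.1 to 40.0 CPM (gap over range 0.915). Strn in SLMAP3-/- replicate 4 was 78.5 CPM beside 86.03 to 87.5 CPM (0.837). The log2 ratio of Strn3 over Strn was 0.215 in SLMAP3-/- replicate 3 beside 0.634 to 0.661 (0.94), and 0.926 in WT replicate 2 beside 0.443 to 0.478 (0.927).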

How the results depend on the processing

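The call of Slmap held in 14 of 15 alternative fits, with log2 fold changes of -1.91 to -1.76 over all 15. The replicate number as a block left 0 genes and 0 members past the threshold in edgeR, with 294 genes at an unadjusted p under 0.05, and gave Slmap -1.84 with an adjusted p of 0.171 in edgeR. Same-numbered lines come from different embryos, and the labels do not say whether the numbers pair them. Their deviations correlated at -0.157, 0.058, 0.187 and -0.003, and 2 of 8 lines correlated best with their own number. So few correlations cannot settle whether same-numbered lines share a litter or a culture batch. SLMAP3-/- replicate 3 and WT replicate 4 carry a common number in their line names, which the labels do not explain, and whether they were littermates is not stated. Their deviations correlated at 0.133, and a lone pair gives no block. DESeq2 called 11 genes against 1 in edgeR, with Slmap the only member among them, and the cause was not tested. No other member passed the threshold under any alternative, and 5 of the other 8 changed sign with some line left out. Leaving out 1 line each gave log2 fold changes of -0.085 to 0.13 for Cttnbp2nl, -0.071 to 0.092 for Sike1, -0.14 to 0.027 for Strn3, -0.12 to 0.043 for Mob4 and -0.45 to 0.11 for Strip2, which was 0.033 in limma-voom. The difference in log2 Strn3 over Strn ranged from -0.082 to 0.079, turning without SLMAP3-/- replicate 3 or without WT replicate 2. With the longest coding transcript as length, WT levels were 43.1 CPM per kb for Strn3, 29.6 for Strn4, 24.9 for Slmap, 24.4 for Fgfr1op2, 23.2 for Mob4, 17.0 for Cttnbp2nl and 5.02 for Sike1, and the striatin shares were 51.9% for Strn3, 35.8% for Strn4 and 12.3% for Strn. Paired permutations of 4 pairs cannot go below p = 0.125. Changes inside a gene's own interval remain compatible with its counts, and the interval was widest for Strip2, the member with the fewest counts and the widest spread between lines.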
